A study of Mus musculus with 54 samples.

Results

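The genes described here build the sperm tail. They were all gene symbols, present in both deposited count tables, that begin with Dnah, Dnahc, Dnaic, Dnalc, Dnali, Tekt, Rsph, Odf or Spag followed by a digit, and 46 of the 23284 genes of the tables met that rule. The core of a sperm tail is the axoneme, a ring of doublet microtubules around a central pair. Outer and inner arm dyneins are motors that slide the doublets against each other, radial spokes link the doublets to the central pair, and tektins are filament-forming proteins bound to the doublet wall. Outside the axoneme, outer dense fibres stiffen the tail of mammalian sperm. The genes are transcribed in meiotic spermatocytes and in haploid spermatids, before the tail is complete.

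The 46 genes fell into 8 roles. There were 5 outer arm dynein heavy chains (*Dnahc5*, *Dnahc8*, *Dnahc9*, *Dnahc11* and *Dnahc17*), 6 inner arm or other heavy chains (*Dnahc1*, *Dnahc2*, *Dnahc6*, *Dnahc7a*, *Dnahc7b* and *Dnahc10*), 5 dynein intermediate or light chains, 5 tektins, 6 radial spoke genes, 8 genes named after outer dense fibres, 3 central pair genes (*Spag6*, *Spag16* and *Spag17*) and 8 other Spag genes. The symbol pattern also took genes that are not known as axoneme parts. *Spag5* encodes the mitotic spindle protein astrin, *Spag9* a scaffold of JNK signalling, and *Spag11a* and *Spag11b* encode defensin-like proteins of the epididymis. These 4 are kept in the counts below, and the last 2 were near 0 in all libraries.

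All mice were C57BL/6 and 3 months old. WT mice were compared with CTCF HET mice, which lack 1 of 2 *Ctcf* alleles, with BORIS KO mice, which lack both alleles of *Boris* (*Ctcfl*), and with the compound mutant (CM, labelled DKO in the deposit), which lacks 1 *Ctcf* allele and both *Boris* alleles. The deletions were present in the whole animal, so somatic cells of the testis carried them too. CTCF is a zinc finger protein that organises chromatin loops, and BORIS is its paralogue in male germ cells. The question addressed by the design was what reduced CTCF, with and without BORIS, does to the transcription of germ cells. RNA was taken from whole testis after enrichment of germ cells (3 libraries per genotype, each from a separate preparation of pooled mice), and from sorted round spermatids (3 per genotype) and sorted spermatocytes (2 WT, 3 of each mutant). For the sorted cells no source used here says whether the replicates were separate preparations, so the p-values there measure the spread between these libraries.

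The whole testis libraries held 10437683 to 42055813 counts, those of round spermatids 47740650 to 98545423 and those of spermatocytes 53337530 to 88946702. Genes with a count numbered 17504 to 17985 in WT round spermatids, 14932 to 16670 in CM and 18511 to 18978 in single mutants. In spermatocytes they numbered 17631 and 17683 in WT and 17672 to 17970 in BORIS KO. CTCF HET spermatocytes held 12018 to 13406 and CM spermatocytes 14145 to 16666. The 46 genes took 1.75 to 1.89% of all counts in WT whole testis and 1.31 to 1.57% in CM whole testis. *Ctcf* itself was at 40.9 to 45.1 counts-per-million (CPM) in WT whole testis, 23.0 to 30.4 CPM in CTCF HET and 24.3 to 26.9 CPM in CM. In CTCF HET round spermatids it was at 21.8 to 33.1 CPM against 28.4 to 48.0 CPM in WT, a range that overlaps. In the other sorted sets it went against the labels. It was at 38.4, 45.5 and 171 CPM in the libraries labelled CM round spermatids, at 34.8, 36.4 and 89.3 CPM in those labelled CM spermatocytes and at 29.9 to 49.5 CPM in those labelled CTCF HET spermatocytes, against 33.6 and 36.0 CPM in WT spermatocytes. The highest value in each CM set was replicate 1, which also stood apart in the rest of its counts, and results that rest on these libraries are given with and without it. *Ctcfl* was at 2.80 to 4.91 CPM in WT round spermatids, 2.06 to 2.38 CPM in BORIS KO and 1.07 to 2.54 CPM in CM, and in whole testis at 0.509 to 0.712, 0.165 to 0.402 and 0.122 to 0.194 CPM, so the libraries of both mutants lay below those of WT in these preparations. In spermatocytes it was near the floor and the groups overlapped. It was at 0.0667 and 0.0808 CPM in WT, at most 0.0878 CPM in BORIS KO and 0.397 CPM in CM, and 1.81 CPM in CTCF HET replicate 2. The deleted part of the gene is not known here. Markers of the sorted cells were present, but the lists differed in how far they separated the cell types. The summed level of 8 elongating spermatid markers, protamines and transition proteins among them, was 2650 to 3870 CPM in WT round spermatids and 59.4 and 64.7 CPM in WT spermatocytes. For 8 round spermatid markers it was 1760 to 1900 CPM against 487 and 552 CPM. The 8 spermatocyte markers lay closer, with 3400 to 3730 CPM in WT round spermatids and 4350 and 5560 CPM in WT spermatocytes.

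In WT whole testis the levels per exon length (RPKM, CPM divided by the kilobases of exon) ranged from 0.0216 for *Spag11a* to 1360 for *Odf1* around a median of 51.1. *Odf1*, which encodes a cysteine-rich main protein of the outer dense fibres, led with a mean and SD of 1360 ± 482 RPKM (SD, n = 3). *Rsph1*, a radial spoke head gene, followed with 782 ± 82.0 and *Odf2*, the other main fibre gene, with 705 ± 158. These 2 did not differ beyond their spread. In each other role the leading gene was *Tekt1* with 299 ± 38.1 RPKM among tektins, *Dnahc8* with 173 ± 18.9 among outer arm heavy chains, *Dnali1* with 105 ± 8.49 among intermediate and light chains, *Spag6* with 100 ± 4.62 in the central pair and *Spag4* with 89.3 ± 27.4 among the other Spag genes. Of the inner arm heavy chains *Dnahc7a* had the largest value, but its annotated model spans only 612 bases of exon for a very long gene, and its level per length is not usable. *Dnahc1* with 30.7 ± 1.55 RPKM came next.

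Paralogues with known sites of use differed in level within WT testis. Among outer arm heavy chains, *Dnahc8* and *Dnahc17*, the pair known from sperm, were at 173 and 62.7 RPKM, whereas *Dnahc5*, *Dnahc9* and *Dnahc11*, known from the cilia of airways and the embryonic node, were at 1.01, 0.823 and 1.51 RPKM. The value of *Dnahc11* (SD 2.26) rests on WT replicate 2, with 57.9 CPM against 2.43 and 3.38 CPM in the others. The radial spoke head paralogues showed the same separation. *Rsph6a*, known from sperm, was at 126 ± 24.6 RPKM and *Rsph4a*, known from airway cilia, at 0.214 ± 0.0449 RPKM. The values in sorted cells kept this order, with *Rsph6a* at 99.9 and *Rsph4a* at 0.632 RPKM in WT round spermatids.

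WT round spermatids and WT spermatocytes differed in which tail genes were high. Most tektins and most genes named after outer dense fibres were higher in round spermatids, and most dynein heavy chains were higher in spermatocytes. Of the 43 genes with enough counts, 29 changed between the cell types in edgeR's quasi-likelihood test at a Benjamini-Hochberg adjusted p below 0.05 (15 higher and 14 lower in round spermatids). Across all genes 70% changed by the same test, with 35.8% higher and 34.2% lower, so the number of changed tail genes is close to the background. *Odf3l2*, *Spag11a* and *Spag11b* were too low to test. Adjusted p-values below come from the same test over all genes unless another is named.

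*Odf1* was at 278, 238 and 255 CPM in the WT round spermatid libraries and at 4.81 and 5.03 CPM in the WT spermatocyte libraries. The difference was 5.80 ± 0.126 on the log2 scale (SE, adjusted p = 1.18e-07). *Odf3l1*, a relative of *Odf3*, was at 148, 131 and 127 CPM against 1.68 and 2.04 CPM. No round spermatid library came near a spermatocyte library for either gene, and *Odf3l1* had the widest difference of all members with 6.28 ± 0.162 (adjusted p = 1.48e-07). *Spag4*, a SUN-domain gene whose product sits where the tail joins the nucleus, was at 42.4, 35.9 and 35.5 CPM against 0.768 and 0.934 CPM, a log2 difference of 5.57. *Odf3* was at 40.3, 36.3 and 34.6 CPM against 1.23 and 1.04 CPM, a log2 difference of 5.13. Among the 7 tested genes named after outer dense fibres 5 were higher in round spermatids and none was lower. *Odf2* was the exception in size, already high in spermatocytes at 340 RPKM and higher by only 0.59 in round spermatids.

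Of the 5 tektins 4 were higher in round spermatids. *Tekt2* was at 631, 493 and 506 CPM against 106 and 109 CPM in spermatocytes, with a log2 difference of 2.43, and *Tekt4* differed by 2.28, *Tekt3* by 1.18 and *Tekt1* by 0.60. Exons of *Tekt2* overlap a gene on the other strand over 20.8% of their length, and the strand setting of the counting is not given in the sources used here. *Tekt5* did not pass the test, with a log2 difference of -0.19.

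All 6 inner arm or other heavy chains were lower in round spermatids, though *Dnahc7a* and *Dnahc7b* are close copies that can share reads. *Dnahc2*, an inner arm heavy chain, was at 160, 91.2 and 79.8 CPM in round spermatids and at 644 and 693 CPM in spermatocytes, a log2 difference of -2.51 ± 0.263 (adjusted p = 1.04e-04). The outer arm chain *Dnahc8* was at 2570, 1220 and 1060 CPM against 6640 and 6700 CPM, a log2 difference of -1.96, and *Dnahc17* had one of -1.72. The first of the 3 WT round spermatid libraries held about 2 times as much *Dnahc2* and *Dnahc8* as the others but stayed below both spermatocyte libraries. *Rsph1* was at 2480, 2060 and 2100 CPM against 6880 and 7630 CPM, the highest level per length of any member in both cell types (1900 and 6230 RPKM). In contrast *Dnahc5* and *Dnahc9* were higher in round spermatids, by 2.92 and 4.13, from levels of at most 0.528 RPKM. *Spag17* and *Rsph9* gave log2 differences of 0.03 and -0.02 and did not pass the test.

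**Figure D1:**
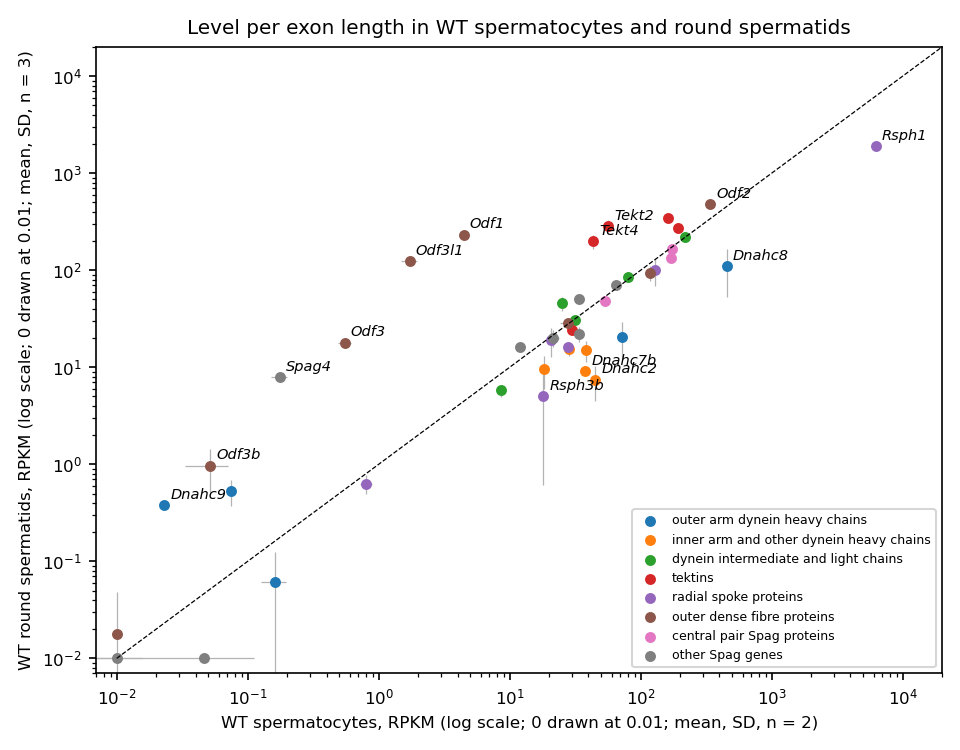
Mean level per exon length (RPKM) of each tail gene in WT spermatocytes (horizontal axis, 2 libraries) and in WT round spermatids (vertical axis, 3 libraries), both on log scales with values of 0 drawn at 0.01 and *Dnahc7a* left out. *Rsph1* lies at the top right with 6230 and 1900 RPKM, *Odf1* far above the line of equal levels with 4.45 and 233 RPKM, and *Dnahc8* below it with 455 and 110 RPKM.

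The promoters of the tail genes were searched for letters of factors known to act in ciliated cells and male germ cells. The window was 250 bases before to 50 after the outermost annotated start of each gene (GENCODE M1, mm9), and all 46 genes had one. The X-box, the site of RFX factors that control cilia genes in many animals, was searched on both strands as GTNNCC, then 3 bases of any kind, then GNNAC. These letters were settled after looser and stricter spellings had been counted. They occurred in 11 of 46 promoters (23.9%) and in 4.57% of 21897 promoters. The MYB core CCGTTG occurred in 6 (13% against 5.54%), and at *Dnahc10* it overlapped the X-box letters. The cyclic AMP element TGACGTCA occurred in 2 (4.35% against 2.39%). The core letters of the CTCF motif, CCNNNAG, then 2 bases of any kind, then GGC, occurred in 1 member, *Odf4* (2.17% against 9.81%).

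The X-box stretches of 7 members are printed because this was the motif met in most members among the 4 searched. They lie outside annotated exons, are written 5′ to 3′ on the strand of the gene, and have the matched letters in capitals, on whichever strand the pattern was met.
*Dnahc17*, chr11:117990659-117990712, minus strand: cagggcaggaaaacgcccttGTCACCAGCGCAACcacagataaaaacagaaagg
*Dnahc2*, chr11:69362663-69362716, minus strand: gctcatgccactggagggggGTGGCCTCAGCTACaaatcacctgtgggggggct
*Odf3b*, chr15:89209699-89209752, minus strand: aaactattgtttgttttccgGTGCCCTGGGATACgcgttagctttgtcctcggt
*Rsph4a*, chr10:33624802-33624855, plus strand: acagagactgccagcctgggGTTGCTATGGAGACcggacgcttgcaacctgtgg
*Spag16*, chr1:69873421-69873474, plus strand: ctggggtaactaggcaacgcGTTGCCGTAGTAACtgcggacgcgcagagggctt
*Spag5*, chr11:78114887-78114940, plus strand: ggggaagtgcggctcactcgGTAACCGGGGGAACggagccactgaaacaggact
*Tekt4*, chr17:25608355-25608408, plus strand: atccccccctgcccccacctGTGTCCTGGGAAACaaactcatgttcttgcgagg
The other members with the letters were *Dnahc10*, *Odf2l*, *Rsph9* and *Spag8*. The 11 genes came from 7 of the 8 roles, all but the intermediate and light chains. They included the heavy chains *Dnahc17*, *Dnahc2* and *Dnahc10*, at 62.7, 26.9 and 18.2 RPKM in WT whole testis, and genes near the floor such as *Rsph4a*.

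ChIP-seq of testis gave 1 peak list per antibody and genotype, so the lists carry no replicate error and their depth is unknown. RNA polymerase II lay within 1 kb of a start at 36 of the 46 genes in WT (78.3%, against 39.4% of 21872 genes) and at 34 in CM (73.9% against 46.6%). H3K4me3, a mark of active promoters, lay at 37 in WT (80.4% against 51.8%) and at 40 in CM (87.0% against 56.7%). CTCF peaks lay at 16 genes in WT, which was 34.8% of the members against 25.4% of all genes. In CM 1 of the 46 genes had a CTCF peak, which was 2.17% against 8.17% of all genes. BORIS peaks in WT lay at 5 genes (10.9% against 13.2%).

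**Figure D2:**
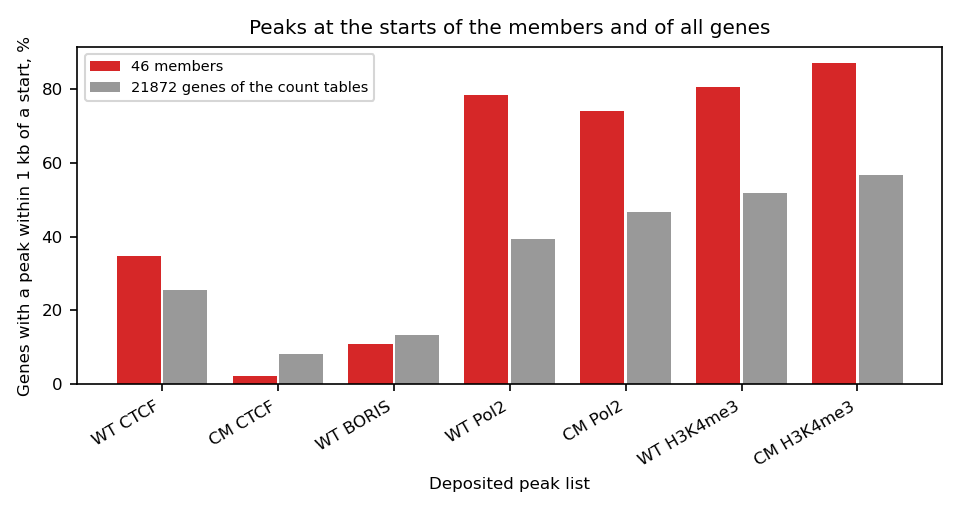
Share of the 46 tail genes and of all 21872 annotated genes with a peak within 1 kb of a start, in percent, for each of the 7 peak lists. The bars for RNA polymerase II and H3K4me3 are higher in the tail genes in both genotypes, and the CTCF bar of the tail genes goes from 34.8% in WT to 2.17% in CM.

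The 16 genes with a WT CTCF peak were *Dnahc1*, *Dnahc7b*, *Dnahc8*, *Dnahc9*, *Dnahc17*, *Dnaic1*, *Odf2*, *Odf2l*, *Odf3b*, *Rsph3a*, *Rsph3b*, *Rsph6a*, *Spag1*, *Spag6*, *Spag7* and *Tekt5*. Peak height, the signal at the summit, ranged from 106 at *Odf3b* to 3558 at *Dnahc17*, where 2 peaks flanked a start inside the gene and not its 5′ end. The peak at *Tekt5* (mm9 chr16:10394929-10395659) had a height of 2125 and ranked 5056 of 34625. Those at *Rsph6a* (chr7:19639386-19640294) and *Odf2* (chr2:29745667-29746583) had heights of 1589 and 1433, and those at *Spag7* and *Dnaic1* 1211 and 904. *Spag1* had 753, *Spag6* 493, and the remaining 8 genes had 106 to 240. The CM list held a CTCF peak at *Dnahc17* (chr11:117964231-117964783, height 847, rank 106 of 21525) and at none of the other 45 genes.

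BORIS peaks lay at *Dnaic1*, *Odf2*, *Rsph3b*, *Rsph6a* and *Tekt5*, each a gene that also had a CTCF peak in WT. They were low in their list, from a height of 82 at *Rsph6a* (rank 3854 of 7652) to 20 at *Rsph3b* (rank 7588), and the one at *Tekt5* (chr16:10395373-10395491) had a height of 47. CTCF core letters were met within 50 bases of the summit at 45.6% of all WT CTCF peaks, 60.4% of all CM CTCF peaks and 49.0% of all WT BORIS peaks. Among the members they were met at the CTCF summits of *Odf2*, *Rsph6a*, *Spag7* and *Tekt5*, and at the BORIS summits of the same genes apart from *Spag7*, which had no BORIS peak. These stretches of 30 bases are printed with the core in capitals because they are the member sites where both the ChIP signal and the motif were found, and all 4 lie in annotated exons. *Dnaic1*, with both proteins and no core letters, stands beside them for contrast.
*Odf2*, chr2:29746203-29746232, minus strand: ccgagtgcgCCGCCAGGAGGCaggtggagg
*Rsph6a*, chr7:19639722-19639751, plus strand: cctctcccgCCACCAGGAGGCagcagcagt
*Spag7*, chr11:70483600-70483629, plus strand: gaagagctgCCGACAGGGGGCtcccctagt
*Tekt5*, chr16:10395421-10395450, plus strand: ggttcctgcCCAGCAGGGGGCagcgcctgc
*Dnaic1*, chr4:41516751-41516780, plus strand: cctcctccccgtgtccggagggggcgctag

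In CM whole testis, genes named after outer dense fibres, tektins and the central pair gene *Spag17* were lower than in WT. Of 43 tested members 12 were lower and 1 was higher, against 8.8% of all genes lower, 16.4% higher and 25.2% in either direction. The median log2 fold change of the members was -0.54, against 0.00349 over all genes, and 39 of 43 lay below 0. The replicate numbers marked libraries that deviated together in whole testis, and with that number as a block 21 members were lower and 1 higher, against 19.2% of all genes lower and 43% in either direction. In bulk RNA, fewer cells of a type and less RNA per cell cannot be told apart.

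*Odf1* was at 952, 1530 and 2020 CPM in WT and at 155, 598 and 529 CPM in CM. All CM libraries lay below all WT libraries, and the log2 fold change was -1.82 ± 0.504 (SE, adjusted p = 0.0317). *Odf3b* was at 15.2, 22.9 and 37.7 CPM against 4.99, 6.53 and 9.06 CPM, with the lowest fold change of all members, -1.91 ± 0.393 (adjusted p = 0.0170). *Odf2* was at 8790, 5860 and 6350 CPM against 4010, 3400 and 2650 CPM, again without overlap, with a log2 fold change of -1.08 ± 0.288. *Odf3* and *Odf3l1* fell by 1.09 and 1.29 on the log2 scale. Thus 5 of 7 tested genes of the role were lower (median -1.09), and *Odf4* and *Odf2l* did not pass the test, with -0.63 and -0.44. With the block *Odf4* passed (adjusted p = 0.0289).

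Among tektins, *Tekt1* was at 554, 434 and 468 CPM in WT and 189, 318 and 217 CPM in CM, *Tekt4* at 227, 229 and 256 against 88.3, 130 and 132 CPM, and *Tekt5* at 203, 167 and 140 against 60.1, 86.3 and 83.6 CPM. The groups did not overlap in any of the 3 genes. The log2 fold changes were -1.02 ± 0.272, -1.03 ± 0.244 and -1.16 ± 0.252, with adjusted p of 0.0291, 0.0210 and 0.0183. *Tekt2* and *Tekt3* had log2 fold changes of -0.999 and -0.83 and missed the threshold without the block (adjusted p = 0.0860 and 0.151), and passed it with the block (0.00479 and 0.0125).

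*Spag17*, whose product is a large protein of the central pair, was at 492, 522 and 366 CPM in WT and 169, 242 and 243 CPM in CM, a log2 fold change of -1.09 ± 0.260 (adjusted p = 0.0214). Genes on the other strand overlap 15.7% of its exons. Its partners *Spag6* and *Spag16* had values of -0.72 and -0.63 and passed with the block alone. *Spag4* was at 574, 409 and 312 against 224, 236 and 179 CPM (-1.03, adjusted p = 0.0303). The inner arm light chain gene *Dnali1* was at 244, 208 and 222 against 121, 151 and 116 CPM (-0.81, adjusted p = 0.0315). Of the radial spoke genes *Rsph9* was lower, with 81.4, 102 and 114 against 48.2, 67.6 and 57.5 CPM (-0.79, adjusted p = 0.0439), and the median of its role was -0.50. *Rsph6a*, *Dnaic1* and *Spag1* had values of -0.73, -0.72 and -0.60 and passed with the block alone (adjusted p = 0.0265, 0.0146 and 0.0330).

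The heavy chains moved least. None of the 6 inner arm or other heavy chains passed the test (median -0.41), and *Dnahc6* passed with the block. *Dnahc8* had a log2 fold change of -0.32 and *Dnahc17* one of -0.26. The exception was *Dnahc9*, the chain of somatic cilia, at 14.1, 13.3 and 12 CPM in WT and 74.6, 22.7 and 44.0 CPM in CM. Every CM library lay above every WT library, and the log2 fold change was 1.82 ± 0.392 (adjusted p = 0.0181).

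**Figure D3:**
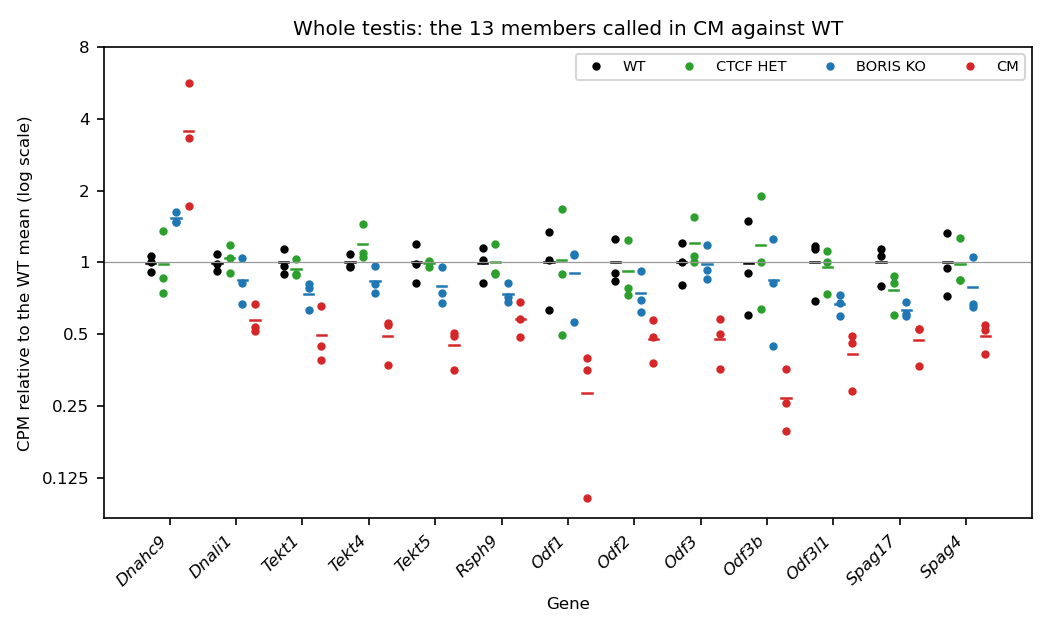
Level of the 13 members that changed in CM whole testis, as CPM divided by the mean of the WT libraries, with 1 point per library for WT, CTCF HET, BORIS KO and CM. For 12 of the genes the CM points lie below all WT points, and for *Dnahc9* they lie above all others.

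Other genes of the tail, from lists outside the symbol rule, gave negative medians as well. Of 8 tested genes of the fibrous sheath, annulus and mitochondrial sheath 5 were lower (median -0.93), among them *Akap4* (-1.36) and *Akap3* (-1.32), anchoring proteins of the fibrous sheath. Of 12 genes of dynein docking and the nexin-dynein regulatory complex 2 were lower (median -0.76), of 9 central pair genes 2 (median -0.79), of 9 genes of light chains, microtubule inner proteins and tubulin enzymes 2 (median -0.68), of 15 genes of intraflagellar transport 1 (median -0.57) and of 8 dynein assembly factors none (median -0.57). Of 9 regulators of ciliary genes 3 were lower, *Sox30* by 1.22, *Foxj1* by 1.16 and *Rfx2* by 1.02 on the log2 scale. No gene of these lists was higher.

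Markers of other cells moved in the same libraries. Of 8 Leydig cell markers 6 were higher (median 2.62), and their summed level was 386 to 645 CPM in WT and 1940 to 3970 CPM in CM. Of 8 macrophage markers 7 were higher (74.4 to 176 against 232 to 711 CPM), and of 7 Sertoli cell markers 2 (99.4 to 168 against 192 to 468 CPM). Of 8 spermatogonia markers 2 were higher (38.8 to 57.8 against 103 to 393 CPM), but the median was 0.119, with 4 genes above and 4 below 0. That list holds *Kit*, whose protein the study detected in spermatocytes and round spermatids of CM. Of 8 peritubular and vascular markers 2 were higher and 1 lower (44.5 to 70.1 against 45.4 to 81.5 CPM). The lists of spermatocytes and spermatids had medians below 0. Of 8 elongating spermatid markers 4 were lower (median -1.1; 18600 to 27200 against 5190 to 14200 CPM), of 8 round spermatid markers 4 (median -0.87; 782 to 1060 against 391 to 660 CPM) and of 8 spermatocyte markers 1 (median -0.38). None of the defining markers of these lists was at 0 in all libraries. The part of cell composition in the fall of the tail genes was not tested.

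Without the block, the calls in CM whole testis depended on single libraries. Leaving out libraries was not run with the block. Without CM replicate 3, WT replicate 2 or WT replicate 3 no member passed (against 0.0239%, 0.066% and 0.0178% of all genes), and without WT replicate 1 the number was 5 (against 10.9%). At the thresholds of the study, a fold change above 2 and an adjusted p below 0.001, none passed. These thresholds were applied here to edgeR's test, whereas the study applied them to DESeq2. The lowest adjusted p of a member by edgeR was 0.017, for *Odf3b*.

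The single mutants moved the tail genes less in whole testis. In CTCF HET no member passed edgeR's test, against 0.00621% of all genes (2.63% at an unadjusted p below 0.05), and DESeq2 called none. *Odf1* had a log2 fold change of 0.04 and *Tekt5* one of -0.01. In BORIS KO none passed either, against 0.0551% (16.6% unadjusted), the median was -0.24 and 38 of 43 members lay below 0. With the replicate block 5 members passed there, against 6.59%. They were *Dnahc9*, with a blocked log2 fold change of 0.62, and in the other direction *Spag17* (-0.64), *Odf3l1* (-0.53), *Spag7* (-0.54) and *Odf2* (-0.41). DESeq2 called *Spag17* alone (2.36% of all genes). *Dnahc9* was at 19.6, 21.4 and 19.6 CPM in BORIS KO, above every WT library and below every CM library.

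CM was compared with each single mutant too. Against CTCF HET 7 members were lower and 2 higher, against 4.88% of all genes lower, 10.6% higher and 15.5% in either direction (with the block 20 were lower and 2 higher, against 43%). *Odf3b* fell by 2.15, *Odf3* by 1.36, *Tekt4* by 1.30 and *Tekt5* by 1.15 on the log2 scale, and *Dnahc9* rose by 1.83. *Dnahc11* gave 3.38, but its level varied within genotypes, with 2.43, 57.9 and 3.38 CPM in WT and 34.2 to 72.1 CPM in BORIS KO. Against BORIS KO no member passed (0.006% of all genes, 21.6% unadjusted), with DESeq2 calling 5 (7.21% of all genes) and the block 4 (7.36%), and *Odf1*, *Odf3* and *Odf3b* were lower by both. Whether the effect of CM departed from the sum of both single mutants was tested as an interaction. No member passed (0% of all genes, 9.97% unadjusted, none by DESeq2), and with the block *Odf3b* did, with a log2 departure of -1.74 (adjusted p = 0.0355, and a departure of -1.88 without the block). With the block and each library's slope on exon GC content removed, as described below for sorted cells, 0 members passed.

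**Figure D4:**
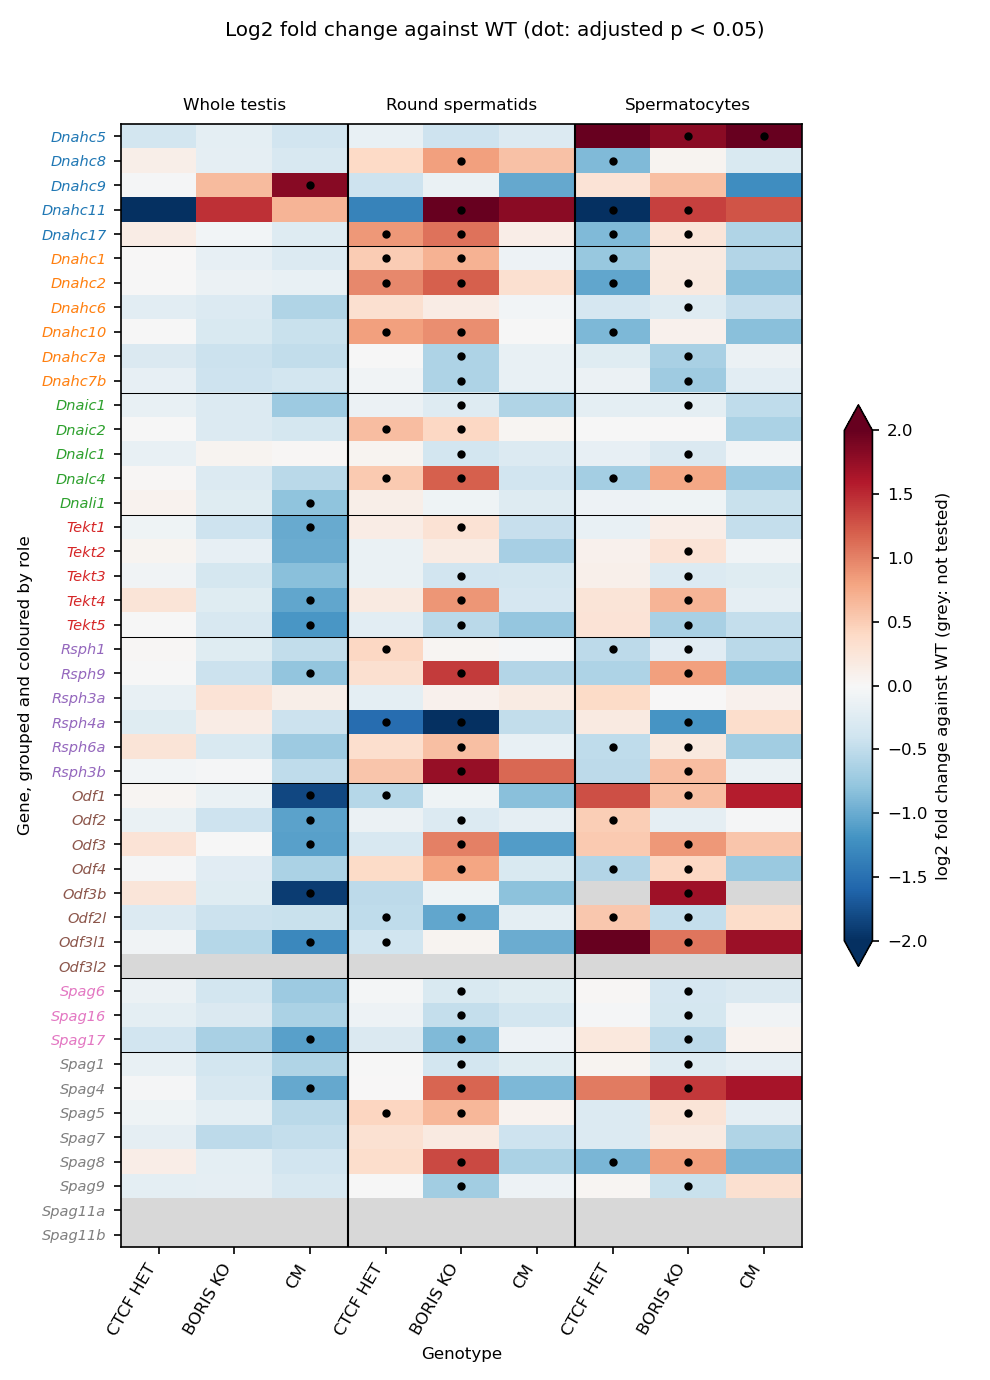
Log2 fold change against WT of each of the 46 genes (rows, ordered by role) in each mutant genotype and preparation, on a colour scale from lower to higher. Dots mark an adjusted p below 0.05 and grey cells were not tested. The CM whole testis column is low over most rows, with *Odf3b* at -1.91 and *Dnahc9* at 1.82 as its ends, and the BORIS KO columns of sorted cells hold 32 and 33 dots.

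In BORIS KO round spermatids 18 members were higher and 14 lower than in WT, and in BORIS KO spermatocytes 18 were higher and 15 lower. Over all genes 26.8% were higher and 29% lower in round spermatids (55.8% in all), and 29.1% were higher and 28.1% lower in spermatocytes (57.2% in all). The summed spermatocyte markers were 1270 to 1300 CPM in BORIS KO round spermatids against 3400 to 3730 CPM in WT. Round spermatid markers were at 1080 to 1120 against 1760 to 1900 CPM, and elongating spermatid markers at 1240 to 2240 against 2650 to 3870 CPM. In BORIS KO spermatocytes these sums were 2470 to 2640, 345 to 370 and 69.6 to 88.7 CPM. In WT spermatocytes they were 4350 and 5560, 487 and 552, and 59.4 and 64.7 CPM. The part of these markers was not tested. All 3 central pair genes were lower in both cell types. *Spag17* had log2 fold changes of -0.88 and -0.52, *Spag16* of -0.48 and -0.35 and *Spag6* of -0.31 and -0.33. *Rsph9*, of the spoke head, was at 42.3, 23.0 and 27.2 CPM in WT round spermatids and 94.1, 87.9 and 68.1 CPM in BORIS KO, a log2 fold change of 1.40, and gave 0.82 in spermatocytes. *Rsph4a* was at 2.90, 1.99 and 2.03 CPM against 0.677, 0.432 and 0.492 CPM, without overlap (-2.15 ± 0.285, adjusted p = 2.54e-04), and fell by 1.17 in spermatocytes.

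*Spag4* was at 42.4, 35.9 and 35.5 CPM in WT round spermatids and 83.0, 88.6 and 90.2 CPM in BORIS KO, a log2 fold change of 1.16, and it gave 1.41 in spermatocytes. *Odf2l*, an *Odf2* relative, was at 82.2, 93.0 and 101 CPM against 48.3, 46.2 and 44.3 CPM in round spermatids. *Odf3* rose by 1.01 and 0.87, *Spag8* by 1.32 and 0.84 and *Dnalc4*, a dynein light chain, by 1.19 and 0.77. *Rsph3b* (1.75), *Dnahc2* (1.19) and *Dnahc17* (1.08) completed the highest without overlap between the groups in round spermatids, and *Dnahc5* (1.80), *Odf3b* (1.70), *Dnahc11* (1.36) and *Odf3l1* (1.07) in spermatocytes. *Dnahc11* was called higher in round spermatids too, with 2.27, but its libraries overlapped. *Rsph3b* and *Rsph3a* are near-identical copies that can share reads. *Tekt5* was lower in both, by 0.54 and 0.65 on the log2 scale.

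These differences went with the base composition of the exons. All 8 members with an exon GC content below 45% were lower in both cell types, and 12 of 19 with a GC content above 53% were higher in each. Across the 43 members, which share their libraries, Spearman's rho between log2 fold change and GC content was 0.61 in round spermatids and 0.57 in spermatocytes, and it was 0.71 over 14919 genes and 0.63 over 13857 genes. Each library had its own slope. The fitted log2 deviation of genes at 56% GC minus that at 42% was 0.997 to 1.08 in BORIS KO round spermatids and -0.702 to -0.196 in WT. It was 1.07 to 1.15 in BORIS KO spermatocytes and 0.0955 and 0.327 in WT. In whole testis the relation was weak for CM against WT (rho 0.068 over all genes and -0.32 over the members).

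With the GC slope of each library removed, a step chosen after seeing the data, 25 members passed in BORIS KO round spermatids (9 higher, 16 lower) against 37.5% of all genes, and 24 in spermatocytes (10 higher, 14 lower) against 42.1%. Of the members called before, 16 and 20 were called again. *Rsph9* and *Rsph4a* in round spermatids kept fold changes of 1.14 and -1.53, while *Spag4* went to 0.33, *Odf3* to 0.15 and *Odf2l* to -0.06. *Tekt5* moved the other way, to -1.34 in round spermatids and -1.1 in spermatocytes. The direction of *Spag6* and *Rsph6a* in round spermatids, and of *Rsph6a* in spermatocytes, turned with this step. They are named here because their values turned. With all 4 genotypes sharing 1 estimate of the spread, and no GC step, 15 and 8 members passed. These counts were not set against the share over all genes in that fit.

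**Figure D5:**
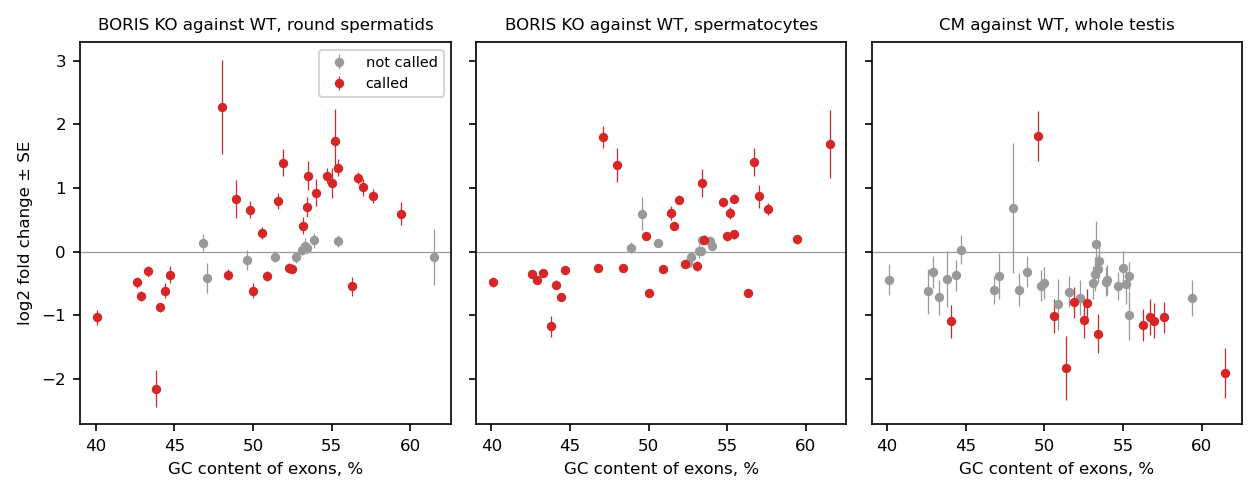
Log2 fold change against WT with its SE for each tested tail gene, plotted against the GC content of its exons in percent, in BORIS KO round spermatids, BORIS KO spermatocytes and CM whole testis. The points climb from left to right in the first 2 panels (rho 0.61 and 0.57), where all 8 genes below 45% GC are lower, and not in the third (rho -0.32).

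In CTCF HET round spermatids 8 members were higher and 4 lower, 12 of 43 against 22.3% of all genes (9.51% higher and 12.8% lower). Whether the effect differed between the sorted cell types was not tested for CTCF HET. The higher genes included heavy chains, *Dnahc2* with 0.96, *Dnahc17* with 0.86, *Dnahc10* with 0.82 and *Dnahc1* with 0.51, and *Rsph1* with 0.42. The lower ones were *Rsph4a* (-1.52), *Odf1* (-0.56), *Odf2l* (-0.51) and *Odf3l1* (-0.39). In the libraries labelled CTCF HET spermatocytes 11 of 42 members were lower and 2 higher, against 8.76% of all genes lower, 6.77% higher and 15.5% in either direction. *Dnahc2* fell by 1.04 there, *Dnahc10* by 0.89, *Dnahc17* by 0.88, *Dnahc8* by 0.88 and *Dnahc1* by 0.75, while in round spermatids these chains had values above 0 (*Dnahc8* 0.39, not past the test), and *Odf2* and *Odf2l* rose by 0.50 and 0.53. *Dnahc11* had counts of 0, 0 and 1 there against 142 and 196 in WT. Those libraries also detected fewer genes as a whole, 12018 to 13406 against 17631 and 17683 in WT. No member of either set passed at the thresholds of the study, applied to edgeR's test. Leaving out single libraries gave 2 to 20 calls in round spermatids and 0 to 13 in spermatocytes. The summed elongating spermatid markers were 99.3 to 248 CPM in the CTCF HET spermatocyte libraries against 59.4 and 64.7 CPM in WT, and the part of these markers was not tested. The slope on GC content was -0.741 to -0.594 there. With the GC slope of each library removed, 14 members passed in CTCF HET round spermatids (6 higher, 8 lower, against 21.7% of all genes), 8 of them among the 12, and *Dnahc1*, *Rsph1* and *Odf2l* no longer passed. In the spermatocyte libraries 8 passed (4 higher, 4 lower, against 8.95%), 5 of them among the 13. *Dnahc2* (-0.78) and *Dnahc8* (-0.92) passed again, and *Dnahc1*, *Dnahc10* and *Dnahc17* did not.

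In the libraries labelled CM round spermatids no member passed edgeR's test, against 0.00654% of all genes (20.5% unadjusted). The direction was mostly down, with 35 of 43 members below 0 and a median of -0.26 against -0.000125 over all genes. The members together took 1.94, 1.15 and 1.71% of all counts in CM replicates 1, 2 and 3, against 1.73, 1.5 and 1.49% in WT, so only CM replicate 2 lay below WT in this share. *Odf3l1* was at 148, 131 and 127 CPM in WT and 87.9, 53.8 and 56.4 CPM in CM (-0.99, adjusted p = 0.118). *Odf3* and *Tekt5* had fold changes of -1.11 and -0.77, and DESeq2 called these 3 genes (11.9% of all genes). Without CM replicate 1, 5 members were lower by edgeR, against 5.67%. They were *Odf3* (-1.49), *Spag4* (-1.33), *Odf1* (-1.22), *Odf3l1* (-1.20) and *Tekt5* (-0.92), each of which was lower in CM whole testis as well. Without CM replicate 2 no member passed, against 0.00632%. The summed round spermatid markers were 1760 to 1900 CPM in WT and 914 to 1270 CPM in these libraries, and the elongating spermatid markers 2650 to 3870 and 1280 to 2010 CPM. The summed spermatogonia markers, *Kit* among them, were 23.1 to 30.3 CPM in WT and 37.2, 382 and 69.4 CPM in CM replicates 1, 2 and 3. The part of these markers was not tested.

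In the libraries labelled CM spermatocytes 1 of 42 members passed, against 0.604% of all genes (29.8% unadjusted). This was *Dnahc5*, at 1.17 and 1.16 CPM in WT and 11.2, 12.1 and 12.2 CPM in CM (3.33 ± 0.220, adjusted p = 0.0151). DESeq2 called 22 (17 lower, 5 higher, 22.1% of all genes), and edgeR without CM replicate 1 called 24 (18 lower, 6 higher, 38.9%). Leaving out any other single library gave no call. *Odf1* was at 4.81 and 5.03 CPM in WT against 11.1, 11.1 and 22.1 CPM, above WT in each library (1.56, adjusted p = 0.0658). The elongating spermatid markers summed to 60.1 to 271 CPM in these libraries against 59.4 and 64.7 CPM in WT, and the round spermatid markers to 562 to 808 against 487 and 552 CPM. Their part was not tested. The CM effect in round spermatids minus that in spermatocytes was tested directly, and it was negative for 3 members, *Dnahc5* (-3.66, adjusted p = 0.0170), *Odf1* (-2.46, adjusted p = 0.0210) and *Odf3l1* (-2.77, adjusted p = 0.0232), against 3.43% of all genes lower and 3.51% in either direction. Leaving out single libraries gave 0 to 5 calls.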

How the data were processed

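The 46 members, the gene lists and the tests were chosen with earlier results of these data known. Per the labels and the study's methods, the authors aligned whole testis reads (rRNA-depleted RNA, Ion Proton, single end) to mm9 with TopHat2 and Bowtie2 and reads of sorted cells (poly(A) RNA, HiSeq2000) with STAR. They deposited raw counts per gene symbol. The counting tool, annotation and strand setting are not given in the sources used here. The deposited CTCF and BORIS peak lists give a signal height per peak and the deposited RNA polymerase II and H3K4me3 lists a MACS score. How replicates were combined is not stated. 0 count columns were left unused.

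Counts were tested over all genes of each table with edgeR 4.0.16 in R 4.3.3 (filterByExpr with a minimum count of 10 and a total of 15, TMM factors, glmQLFit and glmQLFTest, Benjamini-Hochberg threshold 0.05), with the libraries of the compared genotypes in each fit. The script was tested on simulated data. CPM use TMM library sizes, and RPKM divide them by the union of exons of GENCODE M1, which also gave GC content and starts. Precision is limited by 2 or 3 libraries per group. Alternatives were DESeq2 1.42.0, RLE factors, no filter, the study's thresholds, a joint fit of the genotypes, a block for the replicate number, each library left out, and, added after seeing the data, a lowess GC offset (span 0.3) and a fit without replicate 1 of both CM sorted sets.

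The replicate numbers come from the labels. In whole testis all 18 pairs of libraries with the same number had deviations that correlated above 0.1 (mean 0.36), so the numbers were taken to pair the libraries. The main test left this pairing out, and results with the block are given beside it. In round spermatids 4 of 18 pairs and in spermatocytes 1 of 15 did, and there they were not.

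Genes named with full values were, in each comparison, up to 10 called members with the largest change and no overlap between groups (the 3 with the smallest p where fewer than 3 were called), the leading member of each role in WT, and members with CTCF or BORIS peaks. Of the other lists, up to 3 called genes with the largest change in CM were named. Promoter and summit sequences are from the mm9 genome, with gene starts from GENCODE M1.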

Additional observations from a re-analysis of the deposited data

Results flagged for a closer look

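The effect of CM differed between the sorted cell types for *Dnahc5*, *Odf1* and *Odf3l1*, with differences of -3.66, -2.46 and -2.77 on the log2 scale between round spermatids and spermatocytes in edgeR's interaction test. *Spag4* moved in opposite directions in all libraries of both cell types, and its difference of -2.59 was tested and missed the threshold (adjusted p = 0.0507).

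Further genes are listed because all libraries of a mutant lay above WT in a preparation and below it in another. These differences were not tested, and the share of all genes meeting this rule was not counted. In CTCF HET 10 members lay above and 11 below WT in round spermatids, of 43 tested. In CTCF HET spermatocytes 7 lay above and 20 below, of 42 tested. For CTCF HET in round spermatids minus spermatocytes, heavy and light chains of dynein gave positive values, with *Dnahc2* at 2.0, *Dnahc17* at 1.74, *Dnahc10* at 1.72, *Dnahc1* at 1.27 and *Dnalc4* at 1.21, and so did *Odf4* (0.98), *Rsph1* (0.94), *Spag5* (0.69) and *Spag7* (0.57). Negative values came from *Odf3l1* (-2.61), *Odf1* (-1.85), *Odf2l* (-1.04), *Odf2* (-0.61), *Rsph3a* (-0.58) and *Tekt5* (-0.49). For BORIS KO in whole testis minus round spermatids *Dnahc10* gave -1.23 and *Tekt1* -0.72, and *Tekt1* gave -0.555 against spermatocytes. For CM, *Dnahc9* gave 2.84 in whole testis minus round spermatids. In whole testis minus spermatocytes *Odf1* gave -3.39, *Odf3l1* -3.00 and *Spag4* -2.68. The whole testis and sorted tables differ in RNA selection, sequencer and aligner as well as in cells, and these cannot be told apart.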

How the results depend on the processing

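Of 1064 refits of 90 named values, 839 kept their direction and side of the threshold, 193 lost it, 31 gained it and 1 reversed, *Dnahc11* in CTCF HET whole testis, which was -2.71, ranged from -3.26 to -2.66 without any other library and went to 0.19 without WT replicate 2, a library far above the other WT libraries. The causes were not tested. With the replicate block the calls in whole testis were 5 for BORIS KO, 22 for CM, 4 for CM against BORIS KO, 22 for CM against CTCF HET and 1 for non-additivity. With a GC offset and the block they were 8, 22, 4, 23 and 0 in the same order, so the call for non-additivity was lost. DESeq2 gave 1 for BORIS KO whole testis, 5 for CM against BORIS KO, 15 for CM against CTCF HET, 3 for CM round spermatids, 22 for CM spermatocytes and 5 for the difference between them, which was 6 without replicate 1 of both CM sets. At the study's thresholds there were 0 calls for CM whole testis, both CTCF HET sorted sets, CM spermatocytes, CM against CTCF HET and the difference of CM effects, 7 and 3 for BORIS KO round spermatids and spermatocytes, and 15 for the WT cell types. With all 4 genotypes in one fit there were 0 calls for CTCF HET, 15 for BORIS KO and 8 for CM in round spermatids, 8 for BORIS KO and 16 for CM in spermatocytes, and 17 for CM against CTCF HET. The GC offset gave 8 for CTCF HET spermatocytes and 6 for CM spermatocytes. Refit counts printed here, above or below without a share over all genes were not set against one.

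Leaving out 1 library at a time gave 0 to 1 calls for BORIS KO whole testis (1 without WT replicate 2), 0 to 16 for CM whole testis, 2 to 20 for CTCF HET round spermatids (20 without WT replicate 1, and 2 to 7 without any other library), 0 to 5 for CM round spermatids (5 without CM replicate 1), 0 to 13 for CTCF HET spermatocytes (0, 6 and 7 without CTCF HET replicates 2 and 1 and WT replicate 2), 0 to 24 for CM spermatocytes, 0 to 1 for CM against BORIS KO (1 without CM replicate 2), 0 to 10 for CM against CTCF HET (0 without CTCF HET replicate 2 or 3 or CM replicate 3) and 0 to 5 for the difference of CM effects (0 without WT round spermatid replicate 2 or 3 or either WT spermatocyte replicate, 1 without CM round spermatid replicate 3, 5 without replicate 1). None of these refits carried the replicate block. The median level in WT whole testis ranged from 49.3 to 50.5 RPKM without single libraries. With the longest transcript as length the medians were 63.5, 31.9 and 37.8 RPKM in whole testis, round spermatids and spermatocytes, and RLE scaling moved the median change in CTCF HET spermatocytes from -0.11 to -0.04 (-0.0387). CTCF peaks in the upper 50% of heights lay at 8 members in WT (17.4% against 11.2% of all genes). In CM 3 members had one within 2 kb (6.52% against 11.6%) and 0 over the start (against 2.95%). BORIS peaks lay over the start of 1 member (2.17% against 5.88%) and, in the upper 50%, at 0 (against 7.53%).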
